A study of Mus musculus with 2 samples.

Results

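The genes described here are Il17c and the receptor chains and adaptor through which gut epithelium receives the cytokines IL-17, IL-22 and IL-10. They were taken by name, as every non-control probe whose gene name was one of 10 symbols, and the choice of symbols was made with earlier results of these data known. The symbols matched 14 probes and 10 of the 34761 genes on the array, counted by symbol or array name. The samples were CMT93 cells, an established carcinoma line from the rectum of a C57BL/ICRF mouse of 19 months. Both samples were grown in DMEM, and total RNA of each was read on 1 one-colour (Cy3) Agilent array. One sample was the control. The other had received LPS, lipopolysaccharide from the outer membrane of Gram-negative bacteria, for 24 h at a dose of 3 µg/mL. The treatment text is the same for both samples, so dose and time were taken to belong to the LPS sample. A single line was used, and no T cell or innate lymphoid cell is named in the labels.

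IL-17 family cytokines come mainly from T cells and innate lymphoid cells and signal through paired chains of the IL-17 receptor family, which recruit the adaptor Act1, the product of Traf3ip2. IL-17C is a member made by epithelial cells themselves, and the chain encoded by Il17re binds it. IL-22 and IL-10 use class II cytokine receptors, which signal through JAK kinases and STAT3 and share the chain encoded by Il10rb. In the gut, IL-17 and IL-22 are known for raising antimicrobial proteins and neutrophil chemokines in epithelium, while IL-10 acts mainly on leukocytes.

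Il22ra1, Il17re, Traf3ip2 and Il17rc read higher on the LPS array, by 2.73-fold, 1.60-fold, 1.45-fold and 1.24-fold, each size coming from 1 spot per array. The dimmer Il22ra1 probe, read near background, gave 1.17-fold, and with normexp background correction the brighter probe was under 2-fold. For Il17rc the spot errors modelled by the scanner software overlapped between the arrays on both probes. Il17ra, Il10rb and Il20rb differed by no more than the highest spread seen between repeated spots of like brightness. Il17c was not detectable by its only probe with or without LPS. With 1 array in each group, none of these differences has a replicate behind it, and there is no test and no p-value. Both arrays were read in 1 scan. A probe is called measured where the scanner software flagged it as well above background on both arrays, which held for the brightest probe of 58.6% of all genes. Of the 10 genes, 7 were measured, 1 (Il10ra) was above background on the control array alone, and 2 (Il17c and Il17rb) on neither array. The same shares over all genes were 2.73% for the control array alone, 1.94% for the LPS array alone and 36.7% for neither.

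Levels are processed intensities, and each ± after a level is the error that the scanner software models for that single spot. Differences are log2 values of LPS minus control, after each array was scaled to its own 75th percentile. The ± after a difference is the median, over the 20 repeatedly printed probes nearest in brightness, of the SD between spots of a probe. It covers the slide and not the cultures.

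Probes of Il22ra1, Il17re, Traf3ip2, Il17rc, Il17c and Il10ra are shown first, since each value holds only for the stretch its probe read. Each probe has 60 bases, of which the first 30 are printed 5′ to 3′ in lower case as deposited, with none in capitals. Positions are on mouse build mm9.
Il22ra1, chr4:135310900-135310959, plus strand, transcript base 5426: acaaaaacacaaccagaactatctgagata
Il22ra1, chr4:135307221-135307280, plus strand, transcript base 1747: tccacagaactggactctcttttcaaaggc
Il17re, chr6:113420078-113420137, plus strand, transcript base 1913: gctgccaaagatgactaccaaggctcaacc
Traf3ip2, chr10:39361186-39365558, plus strand, transcript base 1666: ggcttccaaactgcgattgacatatttgag
Il17rc, chr6:113433073-113433132, plus strand, transcript base 2212: gcgaggaatgggacctgggaccctgcacta
Il17rc, chr6:113432655-113432714, plus strand, transcript base 1794: ttccaccaccagcgacgccgtatcctgcag
Il17c, chr8:124947254-124947313, plus strand, transcript base 370: aatgcttgtgtcgtggatgcatcaacgcca
Il10ra, chr9:45062237-45062296, minus strand, transcript base 3118: gtcatgaccctaatctggtacgagagctcc

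Both Il22ra1 probes lie 3679 bases apart in the genome and 3679 bases apart in the transcript, so no intron separates them. The Il17rc probes are likewise 418 bases apart by both measures. The Traf3ip2 probe covers 4373 bp of genome with its 60 bases and so spans at least 1 intron. Whether a probe lies in coding sequence or in a UTR was not analysed here. The longest run that any of the 14 probes shared on the same strand with a probe of another gene on the array was 15 bases, so no probe of another gene came near a full match. Transcripts without a probe on the array were not searched.

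**Figure D1:**
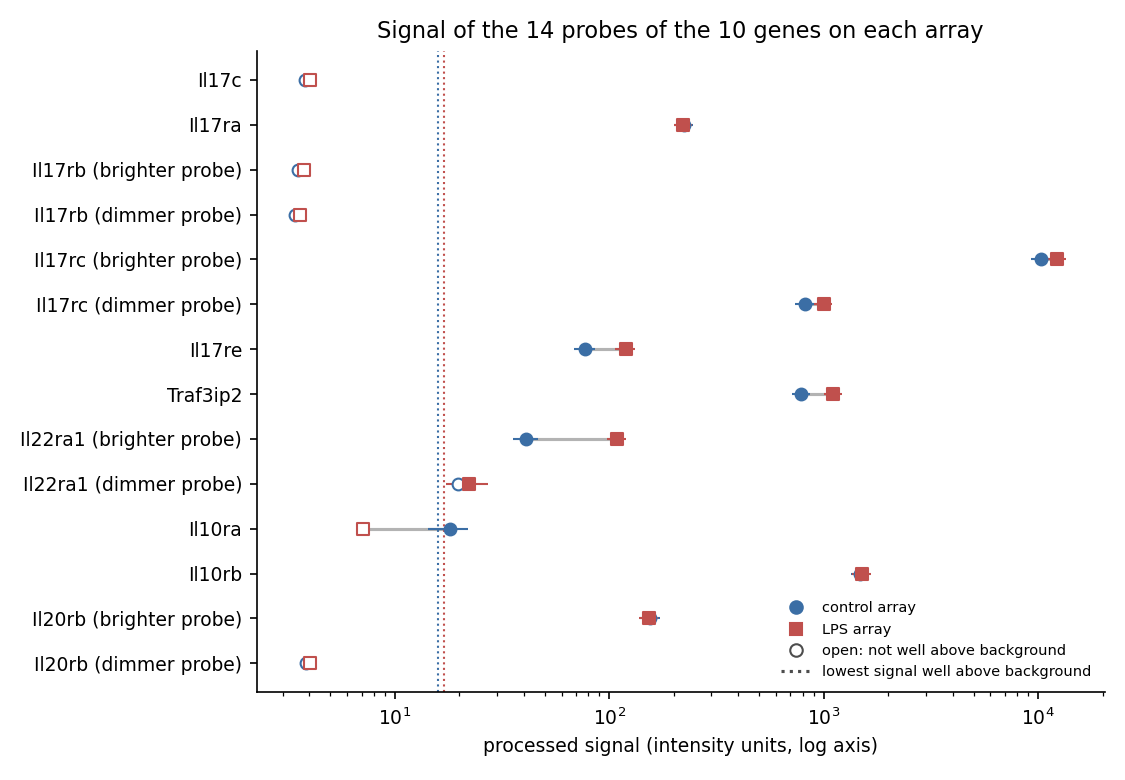
Processed signal (log axis, intensity units) of the 14 probes of the 10 genes on the control array (circles) and the LPS array (squares). Bars are the software's error for 1 spot, open symbols are not well above background, and dotted lines mark the lowest signal well above background on each array. The widest gap between filled symbols is that of the brighter Il22ra1 probe, from 41.0 to 109, while the dimmer Il22ra1 probe sits beside the dotted lines at 19.6 and 22.3.

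Il22ra1, which encodes the chain that makes a cell responsive to IL-22, was higher on the LPS array and was the one gene of the 10 to reach 2-fold. Its brighter probe read 41.0 ± 5.58 on the control array against 109 ± 11.6 on the LPS array. The difference was 1.45 ± 0.17, or 2.73-fold. Of the 20380 measured genes, 161 (0.79%) had a larger difference. In all, 1.46% of measured genes were at least 2-fold higher and 0.569% at least 2-fold lower. Among the dimmest 5095 measured genes, to which this probe belongs, 2.37% were at least 2-fold higher, a larger share than over all brightnesses. With normexp background correction the difference was 0.74, under 2-fold. That correction adds an offset of 50, which is above this probe's control signal, and with no offset the difference was 1.16.

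The dimmer Il22ra1 probe read 19.6 ± 4.64 on the control array, where it was not well above background, and 22.3 ± 4.94 on the LPS array, where it was. The ratio of these values after scaling was 1.17-fold. The 2 signals overlap within the software's error, so this probe alone did not separate the arrays. The lowest signals flagged well above background were 15.9 on the control array against 16.9 on the LPS array, so this probe was read near its lower limit. Its ratio of 1.17-fold was smaller than the 2.73-fold of the brighter probe. Whether the low signal accounts for that gap was not tested. The brighter probe is the one nearer the 3′ end of the transcript.

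The receptor of IL-22 is completed by the chain encoded by Il10rb, which also serves IL-10 and interferon lambda. Il10rb read 1484 ± 148 on the control array against 1513 ± 151 on the LPS array, a difference of 0.07 ± 0.05. The levels overlapped within the software's error. Il20rb, whose product pairs with the IL-22 receptor chain to receive IL-20 and IL-24, read 156 ± 15.9 and 154 ± 15.8, a difference of 0.03 ± 0.10. A further Il20rb probe, named by an Ensembl transcript, was above background on neither array.

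Il10ra, the chain that binds IL-10 and is known mainly from leukocytes, read 18.2 ± 3.86 on the control array against 7.14 ± 3.67 on the LPS array. The first value was barely over the lower limit and the second was not well above background. Taken at its point value, the control level was at least 1.04-fold the LPS level, and no larger fold can be given. That bound does not allow for the control spot's error of 3.86, which is larger than the margin over the limit. Of 14 leukocyte marker genes, 5 were measured, with differences from 0.00 to 0.13 and a summed signal of 11085 on the control array against 11340 on the LPS array. Itgam, a myeloid integrin gene, read 7516 on the control array against 7780 on the LPS array, a difference of 0.09 that was -0.22 with the median over its probes. Csf1r, the macrophage growth factor receptor gene, read 1575 and 1587, a difference of 0.06. The T cell gene Cd3e read 1149 and 1117, a difference of 0.00. Cd79a, a B cell gene, differed by 0.13. None of the 5 measured markers reached 2-fold, and 7 others, among them Lyz2, Tyrobp, Laptm5, Cd3g, Ncr1 and Gata3, were above background on neither array. Adgre1, a macrophage surface marker gene, was above background on the LPS array alone, at 11.6 against 30.3, at least 1.96-fold higher there. Ptprc, the gene of the pan-leukocyte antigen CD45, was above background on the control array alone, at 52.9 against 14.7, at least 3.03-fold higher there, a bound of 1.60 on the log2 scale that became 0.58 with normexp background correction. Csf1r, Adgre1 and the undetected markers were named after their values were seen. The part of such cells in the Il10ra signal was not tested.

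Il17re, which encodes the chain that binds IL-17C, read 77.2 ± 8.42 on the control array against 119 ± 12.5 on the LPS array. The levels did not overlap within the software's error, and the difference was 0.67 ± 0.13, or 1.60-fold. A larger difference was seen in 2.78% of measured genes. With normexp and its offset the difference was 0.44. Il17re and Il22ra1 were the 2 members at least 1.5-fold higher, and no member was 1.5-fold lower, beside 3.59% and 2.66% of all measured genes.

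Traf3ip2, the adaptor gene on which IL-17 receptor signalling depends, read 788 ± 78.9 on the control array against 1110 ± 111 on the LPS array. The difference was 0.54 ± 0.05, or 1.45-fold, and 855 of the 20380 measured genes had a larger one. The levels did not overlap within the software's error.

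Il17rc, whose chain joins the common chain to receive IL-17A and IL-17F, was read by 2 probes that gave like differences. The brighter probe stood at 10271 ± 1027 on the control array against 12299 ± 1230 on the LPS array, a difference of 0.30 ± 0.03. The other probe stood at 820 ± 82.1 and 999.8 ± 100.1, a difference of 0.33 ± 0.06. Both are about 1.24-fold to 1.26-fold, and 9.47% of measured genes had a larger difference than the brighter probe. The software's errors overlapped for both probes. The Il17re and Il17rc probes lie 12995 bp apart on chromosome 6.

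Il17ra encodes the common chain of the IL-17 receptors. It read 224 ± 22.8 on the control array against 222 ± 22.6 on the LPS array, a difference of 0.03 ± 0.09. With that SD the levels could not be told apart. Il17rb, the chain for IL-25 and IL-17B, was above background on neither array by either of its probes, with processed signals from 3.43 to 3.76 that the software assigns to spots below its limit. Il17c itself was above background on neither array, at 3.83 and 4.01. Its spot averaged 28.9 before correction on the control array, against a local background of 35, and 32.9 against 32 on the LPS array. At this sensitivity its only probe detected no Il17c transcript without LPS or at 24 h of LPS, and no fold is given. Other times were not measured.

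Over the 7 measured genes the median difference was 0.30, against -0.02 over all 20380 measured genes. All 7 were above 0, as were 44.5% of all measured genes. For 4 of them (Il22ra1, Il17re, Traf3ip2 and Il17rc) the difference was larger than the highest SD among the 20 repeated probes nearest in brightness, and for Il17ra, Il10rb and Il20rb it was not. The same 4 exceeded the error of the difference that the software's spot errors give, 0.20 to 0.25. Members of a receptor family were chosen together and measured on the same 2 arrays, so these counts are a description.

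**Figure D2:**
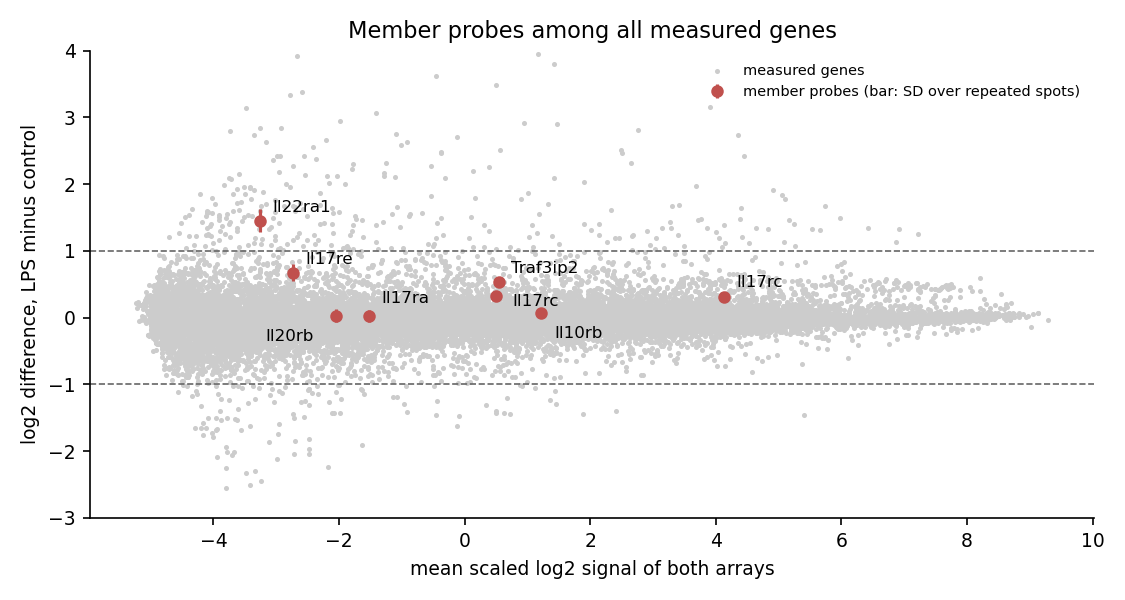
Log2 difference (LPS minus control) against the mean scaled log2 signal for all measured genes (grey) and the 8 measured probes of the member genes (red). Bars are the median SD between repeated spots over probes of similar brightness. Dashed lines mark 2-fold, and 21 genes lie outside the plotted range of -3 to 4. The Il22ra1 probe is above the upper dashed line among dim genes, and the other 7 probes lie between the dashed lines.

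The other genes of these pathways were taken from 9 lists drawn up from general knowledge with earlier results of these data known, in which 83 of 125 genes were measured. Of the 76 that are not among the 10 genes, 20 (26.3%) were at least 2-fold higher and none was 2-fold lower, with a median of 0.32, beside 1.46% higher and 0.569% lower of all 20380 measured genes. Of those 20, 1 was in the lists of receptors. No test of the lists was run.

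Among IL-17 family ligands, 1 of 6 was measured. Il17d read 670 on the control array against 557 on the LPS array, a difference of -0.22 ± 0.06. Il17a, Il17b, Il17f, Il25 and Il17c were above background on neither array. The receptor subunit not among the 10 genes was Il17rd, which encodes a chain that modulates IL-17 and growth factor signalling. It read 377 and 199, a difference of -0.88 ± 0.09, so it was lower where Il17re and Il17rc were higher.

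All 26 transducers and regulators of IL-17 signalling were measured, with 6 at least 2-fold higher, 20 under 2-fold and a median of 0.16. Zc3h12a, the gene of an RNase that degrades cytokine transcripts, stood highest at 4.18, or 2.82 with normexp, and Nfkbia, the gene of the NF-kB inhibitor IkB alpha, at 2.74. The lowest were Arid5a, which encodes a protein that stabilises cytokine transcripts, at -0.45, and Ikbkg, the regulatory subunit of the IkB kinase, at -0.23. Traf6, the ubiquitin ligase recruited by Act1, was at -0.08, and Nfkbiz, a co-factor for IL-17 targets, was at 1.42. Traf6 and Nfkbiz were named after their values were seen.

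Genes known as IL-17 targets in epithelium are also known to respond to LPS directly, so their levels do not show which signal acted. Of 26 such genes 15 were measured, and 12 were at least 2-fold higher and 3 were under 2-fold either way, with a median of 4.15. Lcn2 and Cxcl5 stood highest, at 9.26 and 7.04, and Pigr and Duox2 lowest, at -0.05 and 0.07. Pigr encodes the receptor that carries IgA across epithelium, and Duox2 an oxidase of the gut surface. Another 5, Saa3, S100a8, Cxcl2, Mmp13 and Ccl7, were above background on the LPS array alone, at least 4925-fold, 21.3-fold, 10.4-fold, 9.42-fold and 8.97-fold higher. With normexp the Lcn2 difference was 8.58, and the bounds were smaller, on the log2 scale 9.81 for Saa3 against 12.27, 2.48 for S100a8 against 4.41, 1.64 for Cxcl2 against 3.38, 1.55 for Mmp13 against 3.23 and 1.38 for Ccl7 against 3.16. Ccl20, a chemokine gene that IL-17 is known to raise, was above background on neither array and is named after its value was seen.

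**Figure D3:**
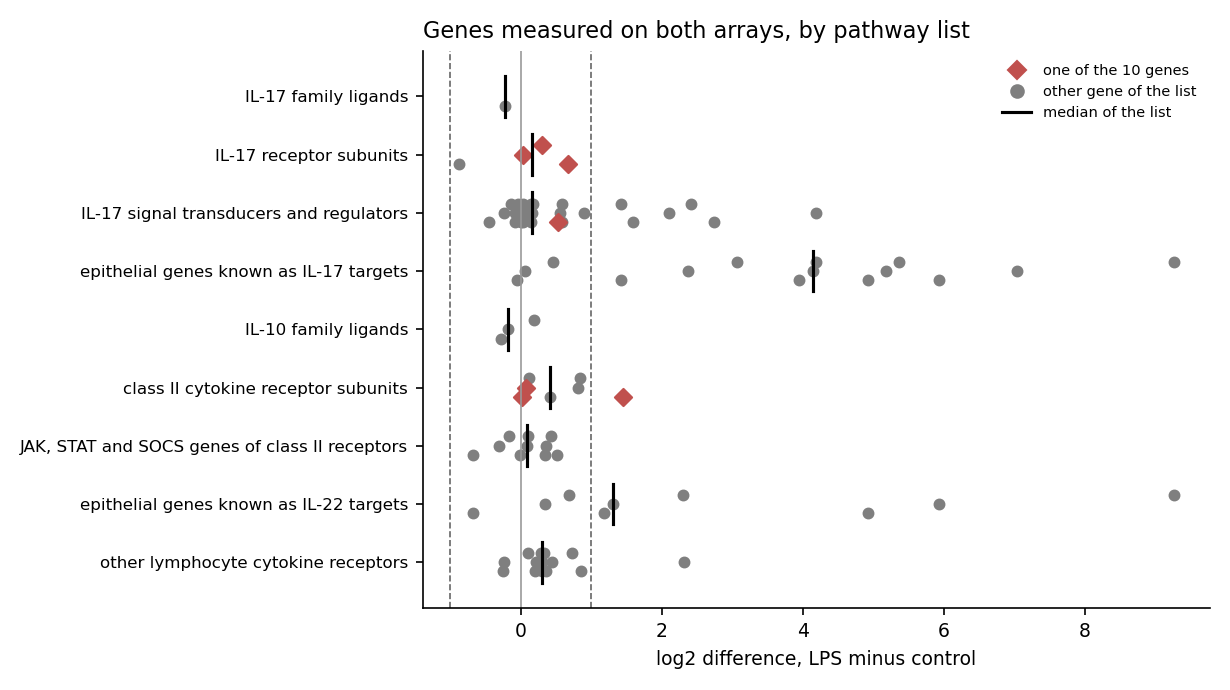
Log2 difference (LPS minus control) of every gene measured on both arrays in the 9 pathway lists, with the members as red diamonds, other genes as grey circles and each list's median as a black bar. Dashed lines mark 2-fold. The target lists have medians of 4.15 and 1.31, and the receptor and JAK, STAT and SOCS lists have medians from 0.10 to 0.41.

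Of the 11 class II receptor subunits 7 were measured, all above 0 with a median of 0.41, and Il22ra1 was the one past 2-fold. Ifngr2 and Ifnar2, subunits of the interferon gamma and type I interferon receptors, were at 0.84 ± 0.03 and 0.82 ± 0.04, and Ifngr1 and Ifnar1 at 0.41 and 0.12. Ifngr2 read 5406 on the control array against 9406 on the LPS array. Il20ra, Il22ra2 and Ifnlr1, which encode the partner chain for IL-20, a soluble IL-22 decoy and the interferon lambda chain, were above background on neither array.

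Of 8 IL-10 family ligand genes 3 were measured. Il22 read 24.6 and 19.6, a difference of -0.28 close to the lower limit, Ifnl3 was at -0.18 and Il24 at 0.19. Il10, Il19, Il20 and Iltifb were above background on neither array, and 1 gene of the list was not found by name. Downstream of these receptors, 10 of 11 JAK, STAT and SOCS genes were measured, none reached 2-fold and the median was 0.10. Stat5a and Jak2 were highest at 0.52 and 0.44, and Socs1 and Pias3, whose products restrain STAT signalling, were lowest at -0.68 and -0.31. Stat3, the main transducer of IL-22 and IL-10, was at 0.09 and is named after its value was seen, and its target Socs3 was at 0.35.

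Genes known as IL-22 targets were measured for 9 of 18, with 6 at least 2-fold higher, 3 under 2-fold and a median of 1.31. Lcn2 and Saa1 were highest, at 9.26 and 5.93. Both stand on the IL-17 list too, as do S100a9 and S100a8, so the target lists share genes and are not independent. Levels of the shared genes do not show which signal acted. Il18, an epithelial cytokine gene, was lowest at -0.67, followed by Socs3. Steap4, a metalloreductase gene, was above background on the LPS array alone, with a bound of 2.32 on the log2 scale, or 0.87 with normexp. The C-type lectin genes Reg3b and Reg3g, which are the best known IL-22 targets of the gut, were above background on neither array and were named after their values were seen.

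Other cytokine receptors are set beside the members as a description. Their list was drawn up with earlier results of these data known, so it is no neutral background. Of 22, 14 were measured, 1 was at least 2-fold higher and none was 2-fold lower, with a median of 0.31, next to 1 of 7 and a median of 0.30 for the members. Osmr, the oncostatin M receptor gene, was highest, reading 1840 on the control array against 8863 on the LPS array, a difference of 2.31 ± 0.04. Il4ra, the IL-4 receptor chain gene, followed at 0.86, or 0.58 with the median over its probes. Il12rb2 and Il9r were lowest at -0.24 each, or -0.10 and -0.04 with normexp. Il23r and Il7r, receptor genes known from lymphoid cells, were above background on neither array and were named after their values were seen.

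The epithelial label was checked on 10 markers, of which 9 were measured. The keratin genes Krt8, Krt18 and Krt19 and the adhesion genes Cdh1 and Epcam were bright on both arrays, and differences over the 9 ran from -0.72 for Vil1 and -0.56 for Epcam to -0.01 for Cdh1 and 0.70 for Elf3. Cdx2, an intestinal transcription factor gene, was above background on neither array. Of 8 fibroblast and endothelial markers 4 were measured. The collagen genes Col1a2 and Col1a1 were highest, at 0.91 and 0.33, and the endothelial genes Kdr and Pecam1 lowest, at 0.05 and 0.00. Col1a2 read 60.7 on the control array against 110 on the LPS array, and with normexp its difference was 0.52.

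**Figure D4:**
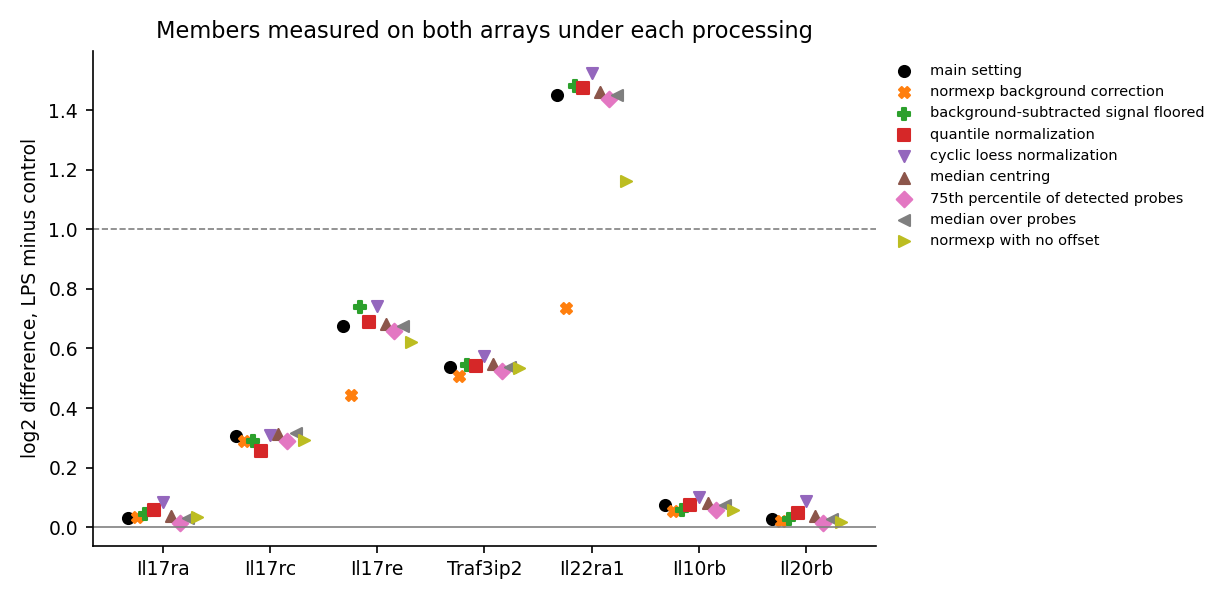
Log2 difference (LPS minus control) of the 7 measured genes under the main processing (black circle) and 8 alternatives. The dashed line marks 2-fold and the solid line 0. Il22ra1 ranged from 0.74 to 1.52 and Il17re from 0.44 to 0.74, and the other 5 genes moved by less than 0.10.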

How the data were processed

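Total RNA of 1 control and 1 LPS-treated CMT93 sample was measured on 1 one-colour array each, grouped by the sample titles. Per the file headers, the deposited intensity of each spot was background-subtracted and detrended by Agilent Feature Extraction 10.10.1.1. Background flags and other columns with no unit are also as deposited by the authors. Probe coordinates are on mm9, per the file headers. Control spots and 223 outlier spots were left out. The log2 processed intensity minus each array's 75th percentile was averaged over spots of a probe, and a gene took its brightest probe. Gene names were brought up to date by accession for 28026 of 55677 probes, from RefSeq's GRCm38.p6 gene table. Spot error came from 399 probes printed 10 times, of which 245 were above background on both arrays. The outlier flags had removed 219 of their spots, so it may be too small. Where a probe was above background on 1 array, the bound sets it against the higher of the other array's own signal and its lowest signal well above background. The number of arrays limits the precision.

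No test was run. The size rule was run on simulated data in which every set change was well past 2-fold and the noise was small. Its calls were thus fixed in advance and check the code only. They do not bear on dim probes, whose repeated spots spread more. Members and lists were chosen with earlier results of these data known. From each list the 2 highest and 2 lowest measured genes were named, with genes on 1 array whose bound reached 2-fold. Some marker genes are not reported here by name. Alternatives were normexp (offset 50), floored background-subtracted signal, quantile, cyclic loess, median centring, the percentile over detected probes, the median over probes, other background filters and 1.5-fold. Normexp with no offset was chosen after seeing the data. Tools were R 4.3.3, limma 3.58.1, Python 3.11.15, numpy 2.4.6, pandas 2.3.3 and matplotlib 3.10.9.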

Additional observations from a re-analysis of the deposited data

How the results depend on the processing

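All 7 measured members kept their sign under the 8 alternatives in processing that were run. Il22ra1 was at 0.74 with normexp and 1.16 with normexp without offset, against 1.45, and between 1.44 and 1.52 under the others. The offset of 50 lifts dim signals by construction. The count of members at least 2-fold higher, 1, became 0 with normexp, 0 when genes below the median brightness were left out, which keeps 3 members, and 2 at 1.5-fold. The count of members at least 2-fold lower, 0, became 1 with the looser background flag and 1 with no filter on dim probes, in both cases Il10ra at -1.30. Over the pathway lists, members included, 21 genes were 2-fold higher, and 12 among the brighter genes. The 20 of them that are not members were all still 2-fold higher under each of the 8 alternatives. None was 2-fold lower, and 2 were with the looser flag, 2 with no filter and 3 at 1.5-fold. No paired analysis was possible because each group has 1 array. With signal near background, Il10ra has only a bound, and Il17c and Il17rb have no fold.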
